A study of Homo sapiens with 8 samples.

Results

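The enzymes that supply deoxynucleotides for DNA synthesis were followed in U251 cells, a human glioblastoma line, after inhibition of PRMT5, the methyltransferase that places symmetric dimethyl marks on arginine. The 7 genes described, of 61906 listed, are RRM1, RRM2, TYMS, TK1, DUT, DCTPP1 and DTYMK. They were found by symbol in the deposited table of TPM values (transcript abundance per unit of transcript length, as a share of the library), and all 7 averaged at least 1 TPM over the 8 libraries, as did 14478 genes in all. The group was chosen by function, but with the LLY-283 to vehicle differences of these same libraries already known, RRM2 among them. The levels and differences of the 7 genes are therefore a description. Their calls in the fit of all genes are given as counts beside those of all genes and are not evidence about the 7 genes.

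The study comprised 8 wild-type U251 libraries, 4 from cells given the vehicle DMSO and 4 from cells given the PRMT5 inhibitor LLY-283 at 100 nM, all for 24 h. U251 is an established line, so both groups share its genetic background, and both were grown in DMEM with serum. The labels call the 4 libraries of each group biological replicates and do not say how the cultures were separated, so p-values measure only the spread between these libraries. TPM keeps no depth, so how deeply the libraries were sequenced is unknown. PRMT5 mRNA itself was at 92.86 to 104.37 TPM with vehicle and 94.30 to 106.01 TPM with LLY-283, which does not measure the activity of the inhibited enzyme. Of the markers of an astroglial tumour line, VIM, NES, CD44, SOX2, SOX9, EGFR and GFAP were all above 20 TPM in every library and S100B was at 2.34 to 4.94 TPM. The leukocyte gene PTPRC and the endothelial genes PECAM1 and CDH5 did not exceed 0.09 TPM, while the myeloid gene CD68 was at 0.95 to 2.93 TPM and, of the neuronal genes, SYT1 was at 4.51 to 5.63 TPM and RBFOX3 at 0 to 0.09 TPM. The oligodendrocyte genes MBP and MOG were at 0.25 to 0.61 and 0 to 0.27 TPM. LLY-283 replicate 4 stood apart in its share of mitochondrial transcripts, 7.19% against 10.2% to 11.0% in the other 7 libraries. For those of the 7 genes whose difference rests on it, the log2 fold change is given with and without it.

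Ribonucleotide reductase makes deoxyribonucleotides by reducing ribonucleotides, and it is the rate-limiting step of their synthesis. It pairs a large subunit, RRM1, which carries the active site and the allosteric sites, with a small subunit that holds a tyrosyl radical. RRM2 is the small subunit of dividing cells and is made around S phase, whereas RRM2B is an alternative small subunit under p53 control. The thymidine nucleotide is supplied by a separate branch. DUT hydrolyses dUTP to dUMP, TYMS methylates dUMP to dTMP with a folate cofactor, TK1 makes dTMP from salvaged thymidine in S phase, and DTYMK phosphorylates dTMP on the way to dTTP. DCTPP1 hydrolyses dCTP and modified forms of it.

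The positions are those of GENCODE release 44 on GRCh38, and all 7 genes are protein-coding. RRM2 (ENSG00000171848) lies on the plus strand of chromosome 2 from 10120698 to 10211725, although its canonical transcript of 10 exons ends at 10131414, so most of the 91.0 kb annotated span belongs to longer models. RRM1 (ENSG00000167325) lies on chromosome 11 from 4094707 to 4138932 with 19 exons in its canonical transcript. TYMS (ENSG00000176890) lies on chromosome 18 from 657653 to 673578, and TK1 (ENSG00000167900) on chromosome 17 from 78174091 to 78187233. DUT (ENSG00000128951) lies on chromosome 15 from 48331011 to 48343373, DCTPP1 (ENSG00000179958) on chromosome 16 from 30423615 to 30430030, and DTYMK (ENSG00000168393) on chromosome 2 from 241675747 to 241686944.

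The sequences upstream of 3 of these genes are shown because their mRNAs took different courses, RRM2 with the largest difference of the 7 genes, its partner RRM1 with almost none, and TYMS between them. Each is the stretch of 250 bases before a RefSeq transcript start on GRCh38.p14, on the plus strand, with the letters CCAAT and the E2F-type letters TTTCCCGC, TTTGGCGC, TTTCGCGC and TTTGCCGC in capitals on either strand. These are chr2:10122489-10122738 for RRM2 (the second of its 2 RefSeq starts), chr11:4094435-4094684 for RRM1 and chr18:657403-657652 for TYMS.
RRM2: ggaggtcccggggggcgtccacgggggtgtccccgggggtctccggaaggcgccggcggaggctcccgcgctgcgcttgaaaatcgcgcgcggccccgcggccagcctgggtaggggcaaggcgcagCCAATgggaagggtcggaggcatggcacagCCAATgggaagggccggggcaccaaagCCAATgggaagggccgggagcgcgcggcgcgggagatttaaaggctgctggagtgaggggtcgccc
RRM1: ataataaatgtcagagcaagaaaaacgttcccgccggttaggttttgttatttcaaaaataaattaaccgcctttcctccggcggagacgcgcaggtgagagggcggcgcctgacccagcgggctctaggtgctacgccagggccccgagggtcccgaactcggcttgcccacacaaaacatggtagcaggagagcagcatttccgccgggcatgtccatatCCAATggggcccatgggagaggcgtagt
TYMS: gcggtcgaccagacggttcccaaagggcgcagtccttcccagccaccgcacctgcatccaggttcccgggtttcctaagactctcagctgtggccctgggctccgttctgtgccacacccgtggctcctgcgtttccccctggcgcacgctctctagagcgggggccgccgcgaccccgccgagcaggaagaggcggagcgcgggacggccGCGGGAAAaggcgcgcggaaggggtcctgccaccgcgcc

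The RRM2 stretch holds 3 CCAAT matches on its plus strand, which begin 123, 93 and 66 bases before the start. They sit in 3 copies of the same 15 letters, agCCAATgggaaggg. These letters were read off the RRM2 stretch itself, as the longest run shared around its 3 matches. They were found in 2 of the 34943 upstream stretches of this length in RefSeq and in triplicate only in that of RRM2. Since the run was fitted to RRM2, its rarity elsewhere is no independent finding. The stretch of the other RefSeq start of RRM2 has 1 CCAAT match, 249 bases before that start. RRM1 has 1 CCAAT match, 28 bases before its start, and TYMS has none. CCAAT occurs at least once in 32.0% of all stretches and at least 3 times in 2.93%, so a single match is common. An E2F-type match is found in 2.77% of all stretches, among them that of TYMS, 39 bases before the start, and the most downstream of the 4 stretches of DUT, with matches that begin 42 and 27 bases before it. TK1 (at one of its 2 starts) and DTYMK have 2 CCAAT matches each, and DCTPP1 has neither kind. These are matches of letters in a fixed window and do not show that a factor binds there. Whether they relate to the mRNA differences, by which the 3 printed genes were picked, was not tested.

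RRM2 had the largest difference of the 7 genes. It was measured at 180.87, 184.32, 180.08 and 184.42 TPM in the 4 vehicle libraries and at 111.49, 111.23, 118.78 and 123.08 TPM in the 4 LLY-283 libraries. The groups did not overlap, and the highest LLY-283 library remained well under the lowest vehicle library. The mean went from 182.4 ± 2.27 to 116.1 ± 5.80 TPM (SD, n = 4 each), so that LLY-283 treated cells had 63.7% of the vehicle level, and the log2 fold change on the log2(TPM + 0.1) scale was -0.65 (standard error 0.037). Of all genes tested, 4.1% had a lower log2 fold change. With LLY-283 replicate 4 left out it was -0.68.

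RRM1, its partner, had almost the same level in both groups. Its levels were 98.21, 94.67, 100.98 and 95.98 TPM with vehicle and 94.31, 96.03, 95.59 and 99.81 TPM with LLY-283, so the ranges overlapped almost entirely. The log2 fold change was -0.02 (standard error 0.031), and its sign turned positive with median-of-ratios scaling (0.05), after a fitted dependence on GC content and transcript length had been subtracted (the GC and length trend, 0.05) and without vehicle replicate 3 (0.002). RRM2B, the alternative small subunit, was far less abundant, at 16.5 ± 0.428 TPM with vehicle and 17.1 ± 0.618 TPM with LLY-283 (SD, n = 4 each; log2 fold change 0.05, adjusted p = 0.451, limma).

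Because both subunits are measured in the same library, their ratio does not depend on how the libraries are scaled. RRM2 over RRM1 was 1.84, 1.95, 1.78 and 1.92 with vehicle and 1.18, 1.16, 1.24 and 1.23 with LLY-283. The mean ratio went from 1.87 ± 0.0749 to 1.20 ± 0.0404 (SD, n = 4 each), 64.3% of the vehicle value, without overlap between the groups. RRM2 over RRM2B went from 11.0 ± 0.406 to 6.81 ± 0.504 in the same way. These are ratios of mRNA and not of protein subunits.

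**Figure D1:**
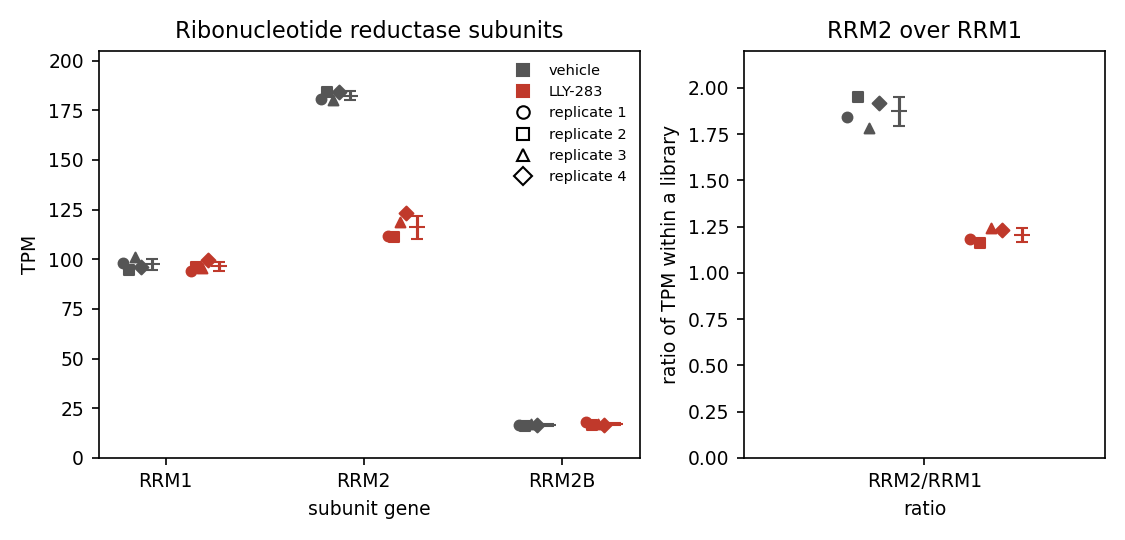
TPM of the ribonucleotide reductase subunit genes RRM1, RRM2 and RRM2B (left) and the ratio of RRM2 to RRM1 TPM within each library (right), with 1 point per library and the mean ± SD (n = 4) beside the points. RRM2 sits at 180.08 to 184.42 TPM with vehicle and 111.23 to 123.08 TPM with LLY-283, while the points of RRM1 and RRM2B overlap between the groups.

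TYMS, thymidylate synthase, was the most abundant of the 7 genes and had the next largest difference under the main scaling. It had 497.17, 462.25, 468.10 and 470.42 TPM with vehicle and 403.46, 412.42, 411.28 and 427.35 TPM with LLY-283, again without overlap. The mean level was 474.5 ± 15.5 TPM with vehicle and 413.6 ± 9.98 TPM with LLY-283 (SD, n = 4 each), or 87.2% of vehicle, and the log2 fold change was -0.20 (standard error 0.031). With the GC and length trend removed it was -0.09, nearer to 0 than that of DCTPP1 (0.14). Set against RRM1 in the same library, TYMS went from 4.87 ± 0.176 to 4.29 ± 0.0114, also without overlap.

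The strand of the counting is not given in the sources used here, so reads from genes on opposite strands at 1 locus cannot be told apart with certainty. TYMSOS, a long noncoding gene that starts head to head with TYMS and shares 698 bases with it, had 8.80, 10.90, 8.28 and 8.89 TPM with vehicle and 5.03, 6.39, 5.37 and 7.33 TPM with LLY-283. On the log2 scale it fell by 0.61 (SE 0.128, limma adjusted p = 0.00771), from a level far under that of TYMS. ENOSF1, which runs into the last exons of TYMS from the other side, was at 1.62 ± 0.274 and 1.34 ± 0.299 TPM (SD, n = 4 each; adjusted p = 0.392, limma). Of 13 annotated pseudogenes named after the 7 genes, 11 were listed at 0 in all libraries and none exceeded 1.76 TPM. DUT-AS1, opposite DUT, averaged under 1 TPM in both groups, and RRM1-AS1 and 2 small RNA genes within the RRM2 span were listed at 0. ZNF771, whose annotation covers DCTPP1 on the opposite strand, was at 8.47 to 12.61 TPM over all libraries.

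DUT, which makes the dUMP that TYMS uses, was almost as abundant as TYMS. Its levels were 429.91, 435.90, 420.35 and 442.93 TPM with vehicle and 393.62, 409.12, 398.59 and 413.84 TPM with LLY-283. The groups did not overlap, but the difference was small, 93.4% of vehicle or -0.10 on the log2 scale (SE 0.027). It overlapped when set against RRM1 in the same library (4.44 ± 0.215 with vehicle, 4.19 ± 0.050 with LLY-283; SD, n = 4 each). DUT over TYMS was higher with LLY-283, 0.976 ± 0.0110 against 0.912 ± 0.0377 (SD, n = 4 each), without overlap.

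The kinases of the same branch are TK1 and DTYMK. TK1, the thymidine kinase of S phase, had 174.72, 179.99, 172.94 and 177.32 TPM with vehicle and 154.33, 162.59, 154.32 and 183.57 TPM with LLY-283. Only LLY-283 replicate 4 reached the vehicle range, and it exceeded it. The log2 fold change was -0.11 (standard error 0.053), and -0.17 without that library.

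DTYMK, the kinase that acts on dTMP, had 102.47, 108.85, 104.79 and 105.29 TPM with vehicle and 88.24, 96.25, 91.68 and 103.78 TPM with LLY-283. Here too replicate 4 alone entered the vehicle range. The log2 fold change was -0.15 (standard error 0.048), and -0.20 without it.

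DCTPP1, the dCTP pyrophosphatase, was the 1 gene of the 7 with a positive difference. It had 73.65, 69.27, 69.44 and 70.16 TPM with vehicle and 71.83, 71.16, 69.07 and 80.95 TPM with LLY-283. The log2 fold change of 0.05 (standard error 0.050) came down to 0.001 without LLY-283 replicate 4.

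**Figure D2:**
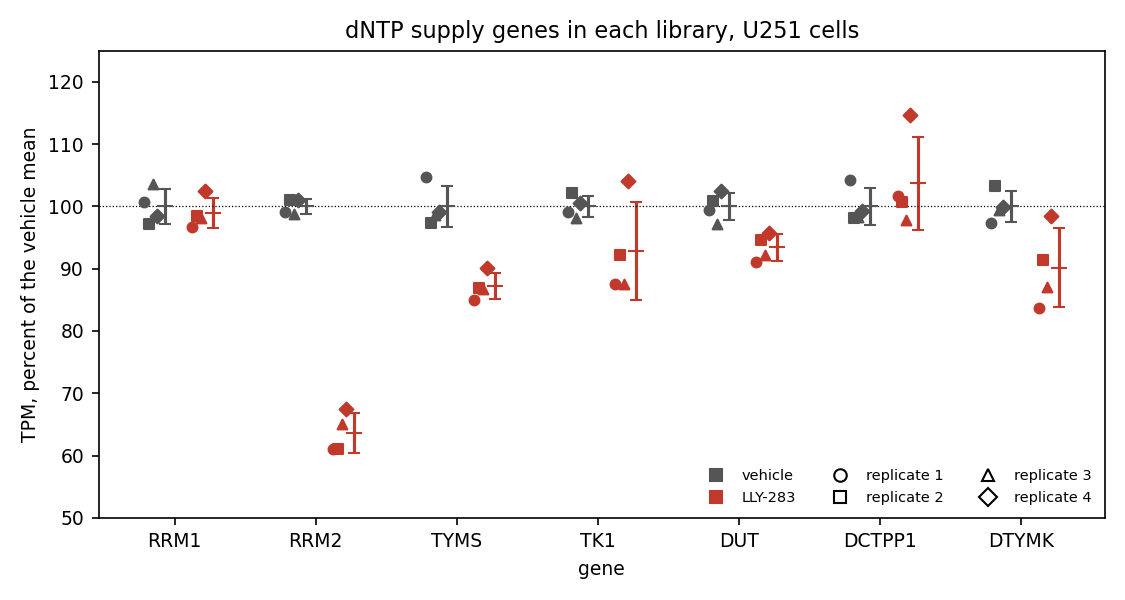
TPM of the 7 genes in each of the 8 libraries, as a percentage of the mean of the 4 vehicle libraries of the same gene, with the mean ± SD (n = 4) beside the points (the axis starts at 50%). RRM2 is at 63.7% of vehicle and TYMS at 87.2%, and the diamond of LLY-283 replicate 4 is the highest LLY-283 point of every gene.

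In all 7 genes the highest LLY-283 value came from replicate 4, the library with the low mitochondrial share. The same library held the highest LLY-283 value of 30.9% of all genes tested. Leaving out the mitochondrial genes and rescaling each library (a choice made after seeing the data) gave a log2 fold change of -0.66 for RRM2, -0.21 for TYMS, -0.11 for DUT, -0.12 for TK1 and -0.16 for DTYMK. What sets this library apart was not tested. The sum of the 7 genes was 1517 to 1557 TPM with vehicle and 1317 to 1432 TPM with LLY-283.

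In the fit of all genes with limma, a gene was called when its Benjamini-Hochberg adjusted p-value was under 0.05. Of the 7 genes, 4 were called lower (RRM2, TYMS, DUT and DTYMK) and 0 higher, beside 17.6% of all genes tested called lower and 8.61% called higher. With a change above 1.5-fold also required, 1 gene, RRM2, remained, beside 3.48% of all genes lower and 0.394% higher. The groups did not overlap for 3 of the 7 genes (RRM2, TYMS and DUT), all lower, beside 19.6% of all genes tested lower and 9.63% higher. Since the contrast was known when the genes were chosen, nothing is read from these counts. The median log2 fold change of the 7 genes was -0.11 and that of all genes tested -0.05.

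The following counts describe how the same calls moved with the processing, and are no further support for a difference. RRM2 was called under all 19 alternatives, with a log2 fold change between -0.68 and -0.57. TYMS was called in 17 of them and was not called once the GC and length trend was removed, with or without a replicate block (log2 fold change -0.09 in both). DUT was called in 9 and DTYMK in 7. DUT was not called with vehicle replicate 1, 2 or 4 or LLY-283 replicate 1 or 3 left out (log2 fold changes -0.10 to -0.09), and DTYMK was not called with any library left out except LLY-283 replicate 4 (-0.17 to -0.12). With all libraries, median-of-ratios scaling and removal of the GC and length trend also ended both calls, with values nearer to 0, at -0.04 and -0.02 for DUT and -0.09 and -0.06 for DTYMK. TK1 was called only without LLY-283 replicate 4. RRM1 and DCTPP1 were called under none.

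**Figure D3:**
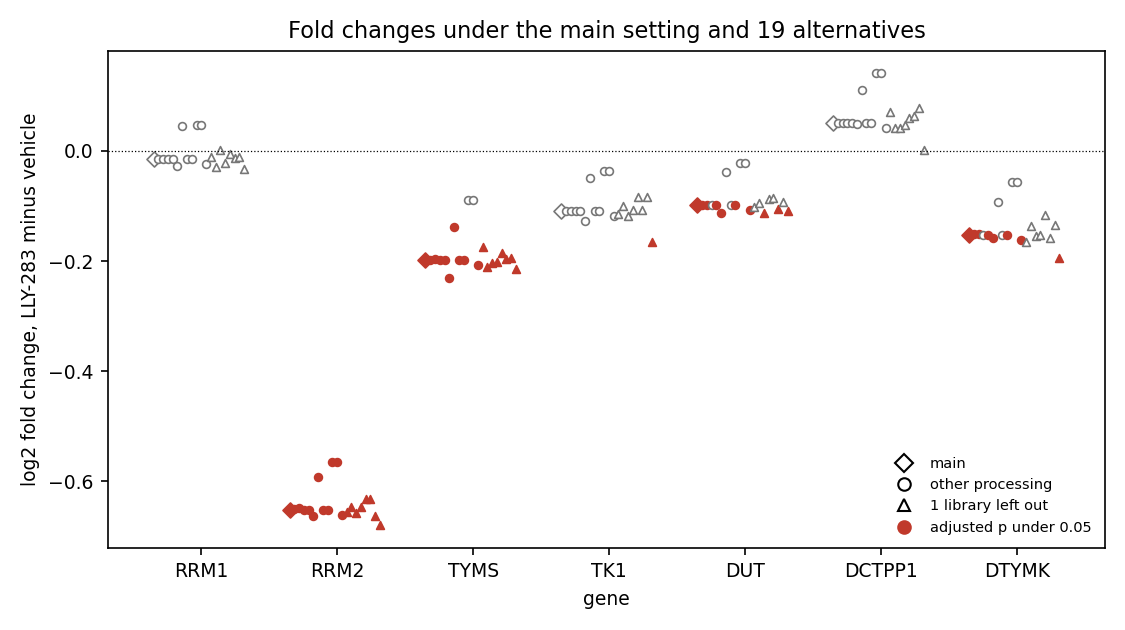
Log2 fold change of the 7 genes, LLY-283 minus vehicle, under the main setting (diamond) and 19 alternatives (circles for other processing, triangles for 1 library left out). Filled red symbols have an adjusted p-value under 0.05. RRM2 stays between -0.68 and -0.57 with all symbols filled. With median-of-ratios scaling and with the GC and length trend removed, the circles of RRM2, TYMS, DUT, TK1 and DTYMK all move towards 0.

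The other genes of nucleotide supply were drawn from lists written by function, 75 genes of which 73 passed the filter. At an adjusted p-value under 0.05, 23 were lower in LLY-283 treated cells, 5 were higher and 45 passed in neither direction. The shares were 31.5% lower and 6.85% higher, beside 17.6% and 8.61% of all genes tested, and the median log2 fold change was -0.05, as over all genes tested. These counts moved with the scaling, as did those of all genes tested. Under quantile normalization 19 were lower and 9 higher, beside 1820 lower and 1871 higher of all genes. With median-of-ratios scaling 11 were lower and 16 higher, beside 1714 and 2165 of all genes, and with the GC and length trend removed 9 were lower and 19 higher, beside 1556 and 2745. Without LLY-283 replicate 4, 24 were lower and 8 higher, beside 2689 and 1502 of all genes. With any of the other libraries left out except LLY-283 replicate 2, the number higher came to 2 or 3. Of all genes, 901 to 1022 were higher in those fits. The counts of the single lists that follow are those of the main scaling and share this dependence.

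Among the electron donors that recharge ribonucleotide reductase, 1 of 7 genes of this list, RRM2B included, was lower (14.3%, beside 17.6% of all genes tested) and 0 were higher (beside 8.61%). The glutaredoxin gene GLRX had 48.8 ± 2.11 TPM with vehicle and 42.5 ± 2.07 TPM with LLY-283 (SD, n = 4 each) and fell by 0.20 on the log2 scale (limma adjusted p = 0.0121). This call was lost with median-of-ratios scaling and with the GC and length trend removed. Thioredoxin, TXN, the most abundant of the list, was at 452.6 ± 10.4 and 444.6 ± 15.3 TPM (adjusted p = 0.572).

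The thymidylate cycle regenerates the folate that TYMS consumes. Of its 16 tested genes 7 were lower (43.8%, beside 17.6% of all genes tested) and 2 higher (12.5%, beside 8.61%).

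SHMT1, the cytosolic enzyme that loads folate with the carbon unit, was named after its values had been seen. It had 92.68, 91.39, 93.46 and 91.21 TPM with vehicle and 70.20, 71.02, 70.50 and 70.38 TPM with LLY-283. The 4 LLY-283 values lay within 1 TPM of each other and far under the vehicle range. SHMT1 fell by 0.39 on the log2 scale (SE 0.025, limma adjusted p = 3.31e-05), and the call held under all 19 alternatives. Its mitochondrial counterpart SHMT2, the most abundant gene of the list, was at 175.5 ± 2.32 and 166.1 ± 7.84 TPM (SD, n = 4 each; adjusted p = 0.125, limma), a log2 fold change of -0.08. It was called lower without LLY-283 replicate 4 (-0.11), under quantile normalization (-0.10) and with mitochondrial genes left out (-0.09), and its sign turned with the GC and length trend removed (0.007).

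MTHFD1, which interconverts folate forms, had the largest increase of the list, from 129.2 ± 2.63 to 139.1 ± 5.50 TPM (SD, n = 4 each; adjusted p = 0.0441, limma). This call was lost under 10 of 19 alternatives, among them with any 1 library left out except LLY-283 replicate 4 (log2 fold changes 0.09 to 0.12, and 0.11 with all libraries). It held, with larger values, under median-of-ratios scaling (0.165) and with the GC and length trend removed (0.186).

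Among salvage enzymes and nucleotide kinases 3 of 16 tested genes were lower (18.8%) and 1 higher (6.25%), shares close to the 17.6% and 8.61% of all genes tested. DCK, the deoxycytidine kinase, was at 26.5 ± 1.13 and 27.8 ± 1.54 TPM (adjusted p = 0.381, limma), and TK2, the mitochondrial thymidine kinase, at 8.50 ± 3.87 and 6.90 ± 1.39 TPM (adjusted p = 0.560). Vehicle replicate 3 had 14.19 TPM of TK2 and the other vehicle libraries at most 7.21, and without it the log2 fold change went from -0.22 to 0.05. Of the nucleoside diphosphate kinases, which complete the dNTPs, NME3 fell (log2 fold change -0.26, adjusted p = 0.00417) and NME1 rose (0.15, adjusted p = 0.0245). The NME3 call was lost with the GC and length trend removed (-0.17), where the NME1 value was larger (0.255, limma adjusted p = 0.00368). That of NME1 was lost without vehicle replicate 1, 3 or 4 (0.13 to 0.15), without a filter on low values and without the eBayes trend. NME2, the most abundant gene of the list, was at 896.9 ± 15.2 and 943.8 ± 59.1 TPM (limma adjusted p = 0.234). LLY-283 replicate 4 had 1032.42 TPM of NME2 and the other LLY-283 libraries at most 915.61. NME1 and NME2 are close copies at neighbouring loci between which reads can be divided wrongly.

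Enzymes that remove or clean up nucleotides included 6 lower (46.2%, beside 17.6% of all genes tested) and 2 higher (15.4%, beside 8.61%) of 13. NT5M, a mitochondrial nucleotidase that acts on thymidine and deoxyuridine monophosphates, had 2.31 ± 0.229 TPM with vehicle and 1.23 ± 0.185 TPM with LLY-283 (SD, n = 4 each) and fell by 0.86 on the log2 scale (limma adjusted p = 0.00448). At this low level the value depended on the processing, at -0.57 with a pseudocount of 1 and -0.65 under quantile normalization, where RRM2 had -0.65 and -0.66. SAMHD1, which degrades dNTPs, had 17.32, 17.03, 17.59 and 16.76 TPM with vehicle and 15.13, 15.72, 15.36 and 15.45 TPM with LLY-283. Its log2 fold change was -0.16 (adjusted p = 0.0165), and the call was lost under quantile normalization, with median-of-ratios scaling and with the GC and length trend removed. NT5C2, a cytosolic nucleotidase, rose (log2 fold change 0.18, adjusted p = 0.00882) under all 19 alternatives too, and NUDT1, the most abundant of the list, was at 178.4 ± 9.06 and 179.8 ± 16.9 TPM (adjusted p = 0.940).

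In the list of de novo pyrimidine synthesis 1 of 5 genes was lower (20%, beside 17.6% of all genes tested) and 0 higher. It was the CTP synthetase gene CTPS1 (log2 fold change -0.12, adjusted p = 0.0132, limma), a call lost with median-of-ratios scaling and with the GC and length trend removed. In the purine list 5 of 16 genes were lower (31.2%) and 0 higher, beside 17.6% and 8.61% of all genes tested. The largest decrease there was that of ADSS1, from 7.82 ± 0.491 to 6.33 ± 0.372 TPM (SD, n = 4 each; adjusted p = 0.0130), lost under quantile normalization and with the GC and length trend removed. PAICS, the most abundant of that list, went from 181.2 ± 4.54 to 169.8 ± 3.95 TPM (adjusted p = 0.0407), a call that held under 7 of 19 alternatives and, of the libraries left out in turn, only without vehicle replicate 4 or LLY-283 replicate 4 (log2 fold change -0.11 in both, and -0.09 with all libraries).

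**Figure D4:**
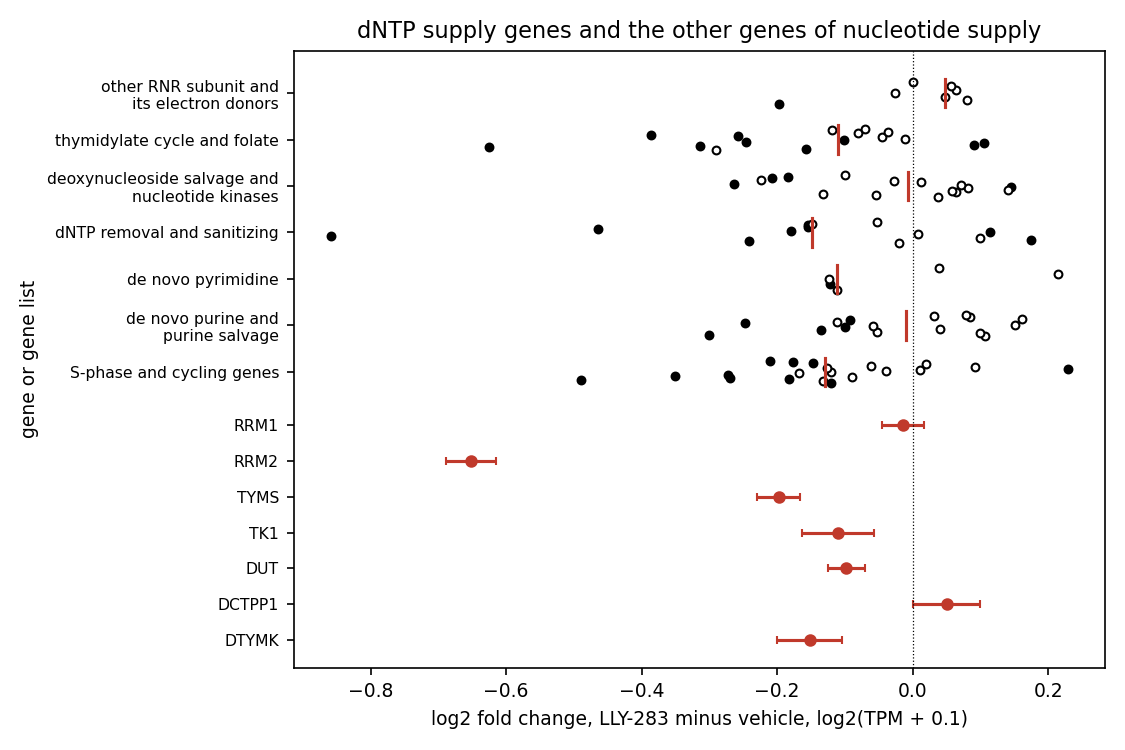
Log2 fold change, LLY-283 minus vehicle, of the 7 genes (red points with standard errors) and of the genes of 7 lists (filled circles for an adjusted p-value under 0.05, open circles otherwise, red bars for list medians). RRM2 is at -0.65 and, of the listed genes, NT5M alone is further from 0, at -0.86, an order that turns with a pseudocount of 1.

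RRM2, TYMS and TK1 are made mostly around S phase, so 20 genes of S phase and cycling were read beside them. Of these, 9 were lower (45.0%, beside 17.6% of all genes tested) and 1 higher (5%, beside 8.61%), with a median log2 fold change of -0.13. The other 10 passed in neither direction. Called or not, 16 of the 20 had a log2 fold change below 0 and 4 above it (MCM2, MCM3, MCM5 and MCM7). With median-of-ratios scaling 5 were lower and 1 higher, beside 1714 and 2165 of all genes. With the GC and length trend removed 5 were lower and 3 higher, beside 1556 and 2745. E2F1, a transcription factor of S-phase genes named after its values had been seen, had 35.36, 36.15, 36.41 and 35.33 TPM with vehicle and 27.62, 28.90, 27.66 and 28.08 TPM with LLY-283 (log2 fold change -0.35, adjusted p = 0.000139, limma).

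The largest decrease of that list was that of CCNE2, which encodes cyclin E2 (log2 fold change -0.49, adjusted p = 0.000842), and the most abundant gene, TOP2A, had -0.21 (adjusted p = 0.00114). MCM3, a subunit of the replicative helicase, rose from 104.7 ± 3.58 to 122.8 ± 3.61 TPM (SD, n = 4 each; adjusted p = 0.00145). The difference of RRM2 was larger than that of any of these 20 genes, a comparison of sizes without a test. In bulk RNA, fewer cells in S phase and less RNA per cell cannot be told apart, and the part of the cell cycle in the RRM2 level was not tested.

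The genes with the profile most like that of RRM2 were sought among the 9089 other genes that averaged 10 TPM or more. The measure was the root mean square difference, over the 8 libraries, of log2(TPM + 0.1) relative to the vehicle mean. It includes the difference between the groups, so genes close by it have similar log2 fold changes by construction. Among the nearest were PCK2 (0.0396), ACP6 (0.0411), OXLD1 (0.0504) and HGH1 (0.0548), with log2 fold changes between -0.65 and -0.61. PCK2 encodes a mitochondrial phosphoenolpyruvate carboxykinase, and none of these 4 genes is in the lists of nucleotide supply. The nearest of the 7 genes to RRM2 was TYMS, at 0.325, whereas TK1 and DTYMK were 0.039 apart. The nearest gene of the table to RRM1 was AP3B1 (0.0166), to TYMS SPECC1 (0.0241), to TK1 NRM (0.0210), to DUT PSMA4 (0.0151), to DCTPP1 PSMB2 (0.0238) and to DTYMK ANXA6 (0.0192).

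In vehicle-treated cells the 7 genes ranked in the order TYMS, DUT, RRM2, TK1, DTYMK, RRM1 and DCTPP1, on the TPM scale, which is per unit of transcript length. TYMS and DUT did not overlap with each other, nor did any other pair of neighbours in this order. RRM2 and TK1 came closest, at 180.08 to 184.42 and 172.94 to 179.99 TPM. With LLY-283 the order of the means changed at 2 places. TK1 at 154.32 to 183.57 TPM then stood above RRM2 at 111.23 to 123.08 TPM, and RRM1 at 94.31 to 99.81 TPM above DTYMK at 88.24 to 103.78 TPM, the latter pair with overlapping ranges. TYMS at 403.46 to 427.35 TPM and DUT at 393.62 to 413.84 TPM then overlapped.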

How the data were processed

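RNA from 8 U251 cultures was sequenced after poly(A) capture. The deposited values are TPM, rounded to 2 decimals, which the authors obtained with RSEM on GENCODE release 41 after adapter trimming (Cutadapt) and alignment to GRCh38 (STAR). The submitters' processing notes give Cutadapt 1.18, STAR 2.7.0f and RSEM 1.3.1, while the methods name other versions of STAR and RSEM. TPM keeps no depth, so sequencing depth is unknown here and counting error cannot be given. TPM also shifts with library composition.

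Genes averaging at least 1 TPM were taken as log2(TPM + 0.1), and the 2 treatments were compared in limma 3.58.1 (eBayes with trend, R 4.3.3) and Benjamini-Hochberg adjustment over 14478 genes. Count models were not used. The lists are of pathway genes and the named genes are, per list, the largest passing change in each direction, the most abundant gene, any passing change above 1.5-fold and a few fixed names, with genes overlapping the members and those of nearest profile; exceptions are stated. The members and lists were chosen with earlier results of these data known. The alternatives were other pseudocounts, filters, scalings, eBayes without trend, a fit with replicate block, subtraction of a spline on GC content and length (4 degrees of freedom) and each library left out. Positions came from GENCODE release 44, which matched 14457 genes, and upstream sequences from RefSeq on GRCh38.p14, which held all 7 genes. Some genes that the rule names are not reported here.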

Additional observations from a re-analysis of the deposited data

How the results depend on the processing

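The 7 genes were chosen with this contrast known, so their calls describe the processing only. The RRM2 to RRM1 ratio with LLY-283 was 63.3% to 65.1% of vehicle when single libraries were left out. The number of the 7 genes called lower was 4. It was 2 without a filter on low values, with median-of-ratios scaling and without the eBayes trend. It was also 2 at an adjusted p-value under 0.01, a threshold at which the share of all genes is not given here. It was 1 with a 1.5-fold change required and 1 with the GC and length trend removed, alone or with the replicate block. It ranged from 2 to 5 with each library left out, beside 1898 to 2689 lower of all genes. Of all genes, 2041 were lower without a filter on low values and 2391 without the eBayes trend. Among the other genes of nucleotide supply, the 5 called higher became 1 without a filter, 1 without the eBayes trend, 9 under quantile normalization, 16 with median-of-ratios scaling, 19 with the GC and length trend removed and 15 when the replicate block was added, and 2 to 8 with a library left out. The 23 called lower became 11, 9 and 7 in the last 3 of these settings with all libraries. In the S-phase list the 9 called lower became 5, 5 and 4 there, and the 1 called higher became 3 with the GC and length trend removed. Over all genes the 2541 called lower and 1247 called higher became 1820 and 1871 under quantile normalization, and 1714 and 2165 with median-of-ratios scaling. With the GC and length trend removed 2745 were higher and 1556 lower, and with the replicate block added 2270 and 1329. In most cases the cause was not tested. Vehicle and LLY-283 libraries of the same number did not deviate together (correlations -0.085 to 0.032 across genes), and the replicate block alone left 4 of the 7 genes called lower, with 2201 genes lower and 1095 higher in all. TPM gives no depth, so how far depth limits the smaller differences cannot be stated.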
